A study of Mus musculus with 5 samples.

Results

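The antibody heavy chain V genes are the gene rows of the mouse annotation whose symbol starts with Ighv. There were 185 such rows with 183 symbols among the 32285 genes of the count tables, because 2 symbols, Ighv1-13 and Ighv5-8, each stand on 2 rows. Their transcripts were counted in plasma cells and B cells of 5 segments of mouse intestine. The segments were duodenum, jejunum, ileum, colon and rectum, with 1 single-cell RNA library each, described in the labels as epithelial, mesenchymal and immune cells of the segment. Live cells, negative for the dye propidium iodide at 5 µg/ml, were sorted and loaded on the 10x Chromium platform, which tags each captured transcript with a unique molecular identifier (UMI), so that a count is a count of molecules. The labels give no strain, age, sex, treatment or number of animals, and no segment has a second library, so no test between segments was possible.

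An antibody heavy chain is made from a V, a D and a J segment that a developing B cell joins at the DNA level, followed by a constant gene that sets the class, such as IgM or IgA. A B cell normally carries a single productive heavy chain rearrangement, and its descendants keep it, so the V gene in a transcript is an inherited label of the cell. Plasma cells are the antibody-secreting descendants of B cells, and in the gut wall most of them secrete IgA.

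Plasma cells were cells with at least 0.5% of their UMIs from Jchain, the joining chain of secreted IgA and IgM, and together at least 3 UMIs of Mzb1, an endoplasmic reticulum protein of secreting cells, and Tnfrsf17, a plasma cell survival receptor. B cells had together at least 3 UMIs of the antigen receptor partners Cd79a and Cd79b and of the surface protein Ms4a1, with Jchain under 0.5%. This gave 81, 74, 32, 96 and 280 plasma cells in duodenum, jejunum, ileum, colon and rectum, 563 in all, and 1298, 560, 988, 437 and 530 B cells. The summed level of 9 plasma cell markers was 421132 to 481824 counts per 1000000 UMIs (CPM) in plasma cells, against 6038 to 9492 CPM in B cells. Nearly all of the plasma cell sum came from Igha and Igkc, in the rectum 112705 and 305206 CPM. Sdc1, Xbp1, Prdm1, Derl3, Fkbp11 and Edem1 were also higher in plasma cells in every library. Irf4 was lower in plasma cells except in the colon. The summed level of 10 B cell markers ran the other way, 2657 to 7526 CPM in plasma cells against 18728 to 25451 CPM in B cells. T cell markers summed to at most 134 CPM in plasma cells and 91.1 CPM in B cells, and macrophage markers to at most 663 CPM and 1208 CPM. Epithelial markers summed to 97.0 to 376 CPM in plasma cells and 587 to 959 CPM in B cells. Stromal markers were at 0 CPM in plasma cells of the duodenum and ileum and reached 319 CPM in those of the colon, against 0.953 to 215 CPM in B cells. The part of these other transcripts in the results was not tested. The libraries held 41953568 to 65546664 UMIs each. Across all pairs of libraries 30 cell barcodes were shared, none of them between plasma cells.

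Heavy chain V transcripts were abundant in plasma cells and sparse in B cells in every segment. A plasma cell held a median of 15, 20, 13, 12 and 21 Ighv UMIs in duodenum, jejunum, ileum, colon and rectum, whereas the median B cell held 0 in every library. The means were 20.9, 37.3, 23.9, 17.98 and 36.6 Ighv UMIs per plasma cell, against 0.160, 0.204, 0.220, 0.190 and 0.200 per B cell. The ratio of these means was 94.7 in the colon, the lowest, and 183 in the jejunum, the highest. Depth differed between the classes as well: the median plasma cell had 30268 UMIs and the median B cell 3363. As a share of all UMIs, Ighv genes made up 777, 1048, 824, 549 and 989 CPM in plasma cells and 35.1, 34.3, 41.4, 43.5 and 45.0 CPM in B cells, a ratio of 12.6 (colon) to 30.6 (jejunum).

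At least 1 Ighv UMI was found in 93.8% to 96.8% of plasma cells, against 14.1% to 19.5% of B cells. After every cell was thinned to 2000 UMIs, these shares were 62.5% to 75.7% in plasma cells and 8.74% to 10.4% in B cells, with 6 plasma cells and 176 B cells left out as too shallow. T cells, which do not rearrange this locus productively, served as the measure of free RNA: 0% to 2.13% of them held an Ighv UMI, at a median of 3431 to 5070 UMIs per cell, close to the B cells' 2843 to 3640. In the ileum no T cell of 129 held an Ighv UMI, which an exact 95% interval extends to 2.82%. Epithelial cells held an Ighv UMI in 0.295% to 3.64%, the highest share being in the rectum. The B cell shares were above both in every library. T cells and epithelial cells were picked without B cell marker UMIs, so their shares may understate free RNA. Intervals here and below are exact Clopper-Pearson 95% intervals. They cover counting error only, and cells of a clone are not independent.

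**Figure D1:**
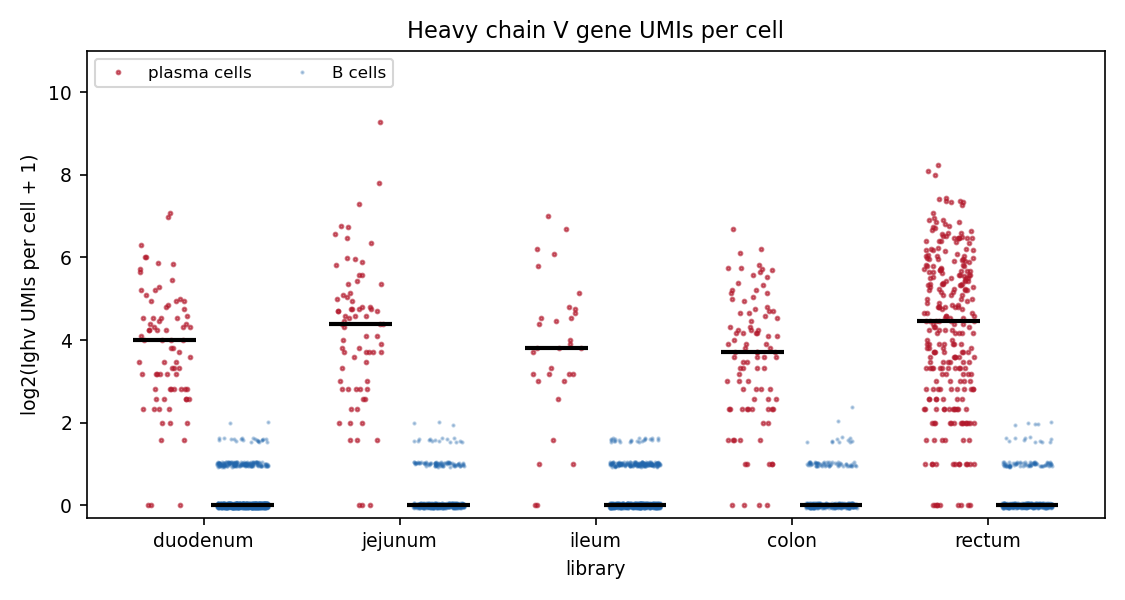
Each point is a cell, with its library on the horizontal axis and log2 of its heavy chain V gene UMIs plus 1 on the vertical axis, plasma cells in red left of B cells in blue, and black bars at the medians. Plasma cell medians are 12 to 21 UMIs, and the B cell median is 0 in each library.

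The V part of the message was counted far less often than the constant part. In plasma cells there were 116 to 182 heavy chain constant gene UMIs for each Ighv UMI, and in B cells 54.0 to 88.6. Which end of the transcript the libraries read is not given in the sources used here. The yield also differed between cells led by different V genes, and whether gene or clone sets it was not tested. Over the 28 genes that led in at least 5 plasma cells, the median number of UMIs of the leading gene ran from 4.5 for Ighv1-74 and 5 for Ighv1-26 to 37.5 for Ighv1-53 and 53 for Ighv10-1. Per 100 heavy chain constant gene UMIs of the same cells it ran from 0.177 for Ighv1-26 to 1.46 for Ighv10-1. Rectal cells led by Ighv10-1 had medians of 39688 UMIs in total, 3890 heavy chain constant gene UMIs and 62 Ighv UMIs. For rectal cells led by Ighv1-26 these were 37756, 3362 and 5. Summed UMIs therefore weight genes unequally, and usage is given below as a share of cells. This share depends on yield as well, because a cell is called only with at least 3 UMIs of its leading gene. With 1 UMI enough, rectal plasma cells led by Ighv1-26 rose from 19 to 28, and those led by Ighv10-1 from 55 to 57.

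Most plasma cells showed a single leading V gene. A gene was called dominant in a cell if it had the most Ighv UMIs, at least 3 UMIs and at least 50% of the cell's Ighv UMIs. This held for 74 of 81, 65 of 74, 27 of 32, 75 of 96 and 237 of 280 plasma cells in duodenum, jejunum, ileum, colon and rectum, 84.9% in all (interval 81.7% to 87.8%). The share was highest in the duodenum, at 91.4% (83.0% to 96.5%), and lowest in the colon, at 78.1% (68.5% to 85.9%). Of the 85 cells without a dominant gene 57 had under 3 Ighv UMIs. In 283 of the 478 called cells the dominant gene was the only Ighv gene detected. In B cells the same rule called 9 of 3813, so B cell usage is given from cells with at least 1 Ighv UMI. Of 622 such B cells 529 held exactly 1 Ighv UMI, against 19 of 542 plasma cells. Most B cell calls below therefore rest on 1 molecule, and the classes are not called on a like basis.

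The usage was spread over many genes. Of the 185 rows, 95 had a UMI in plasma cells, 93 in B cells and 76 in neither. Both rows of Ighv1-13 and of Ighv5-8 were among the rows without a plasma cell UMI. RefSeq places all 185 on chromosome 12 of GRCm38.p6, the assembly behind the build mm10 named in the submitters' processing notes, between 113572929 and 116009954. It annotates 120 as V segments and 65 as V segment pseudogenes. A total of 72 genes were dominant in at least 1 plasma cell, 17 of them in a single cell, and 22 in only 1 library. The 7 dominant in all 5 libraries were Ighv10-1, Ighv1-82, Ighv1-80, Ighv6-3, Ighv1-5, Ighv2-2 and Ighv1-59. The 12 genes with the highest mean share over the libraries together held 53.5% of called plasma cells, libraries weighted equally.

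Ighv10-1 (ENSMUSG00000095981, chr12:114479007-114479451) was the leading gene, with a mean share of 10.6% of called plasma cells. It was dominant in 7 of 74 duodenal, 4 of 65 jejunal, 2 of 27 ileal, 5 of 75 colonic and 55 of 237 rectal plasma cells. The share was 6.15% to 9.46% in the first 4 segments and 23.2% in the rectum. The exact interval was 17.99% to 29.1% in the rectum, 3.89% to 18.5% in the duodenum and 1.70% to 15.01% in the jejunum. It was 0.910% to 24.3% in the ileum and 2.20% to 14.9% in the colon. These intervals treat cells as independent, so they do not compare segments. In B cells Ighv10-1 was rare: it led in 1, 0, 2, 0 and 3 cells, a mean of 1.04% of B cells with a leading gene. In the rectum, where its RNA was most abundant, Ighv10-1 UMIs were found in 5 of 182 plasma cells led by another gene (2.75%), in 3 of 530 B cells (0.566%), in 1 of 96 T cells (1.04%) and in 4 of 741 epithelial cells (0.540%). The rectal B cell share was thus within the range of cells that do not make antibody.

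The next 3 genes by number of rectal cells were Ighv1-53, Ighv1-26 and Ighv7-3. The rectum held 237 of the 478 called cells, so counts are read against the called cells of each library. Ighv1-53 (ENSMUSG00000093894, chr12:115158445-115158835) was dominant in 4, 3, 0, 1 and 28 plasma cells from duodenum to rectum, 11.8% of the rectal cells (7.996% to 16.6%). Ighv1-26 (ENSMUSG00000094546, chr12:114788372-114788665) was dominant in 1, 0, 0, 2 and 19 plasma cells, 8.02% of the rectal cells. Its leading cells held few V UMIs, 3 to 17 each. Ighv7-3 (ENSMUSG00000076652, chr12:114153180-114153644) was dominant in 3, 0, 0, 1 and 18 plasma cells, 7.59% of the rectal cells. RefSeq annotates Ighv7-3 as a pseudogene, yet it had 672 plasma cell UMIs and 8 to 58 UMIs in each cell it led. Only 2 other genes annotated as pseudogenes were dominant, Ighv3-2 and Ighv7-1, in 1 cell each. Together pseudogene rows held 5.18% of plasma cell Ighv UMIs and 3.98% of B cell Ighv UMIs.

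Other common genes were not highest in the rectum. Ighv1-82, near the distal end of the locus (chr12:115952538-115952831), was dominant in 3, 5, 3, 7 and 6 plasma cells, a share of 4.05%, 7.69%, 11.1%, 9.33% and 2.53%. Ighv1-80 was dominant in 2, 3, 2, 7 and 3 plasma cells, 9.33% in the colon and 1.27% in the rectum. Ighv6-3 was dominant in 3, 5, 1, 3 and 3 plasma cells, Ighv1-76 in 4, 0, 3, 2 and 4, and Ighv3-6 in 6, 3, 0, 2 and 9. Ighv1-69 was dominant in 4 duodenal and 5 jejunal plasma cells, 1 colonic one and none of the other 2 libraries. With 27 called cells, a count of 0 in the ileum allows a share of up to 12.8%. Ighv1-5, Ighv1-64 and Ighv2-2 each had a mean share of 2.54% to 3.51%.

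**Figure D2:**
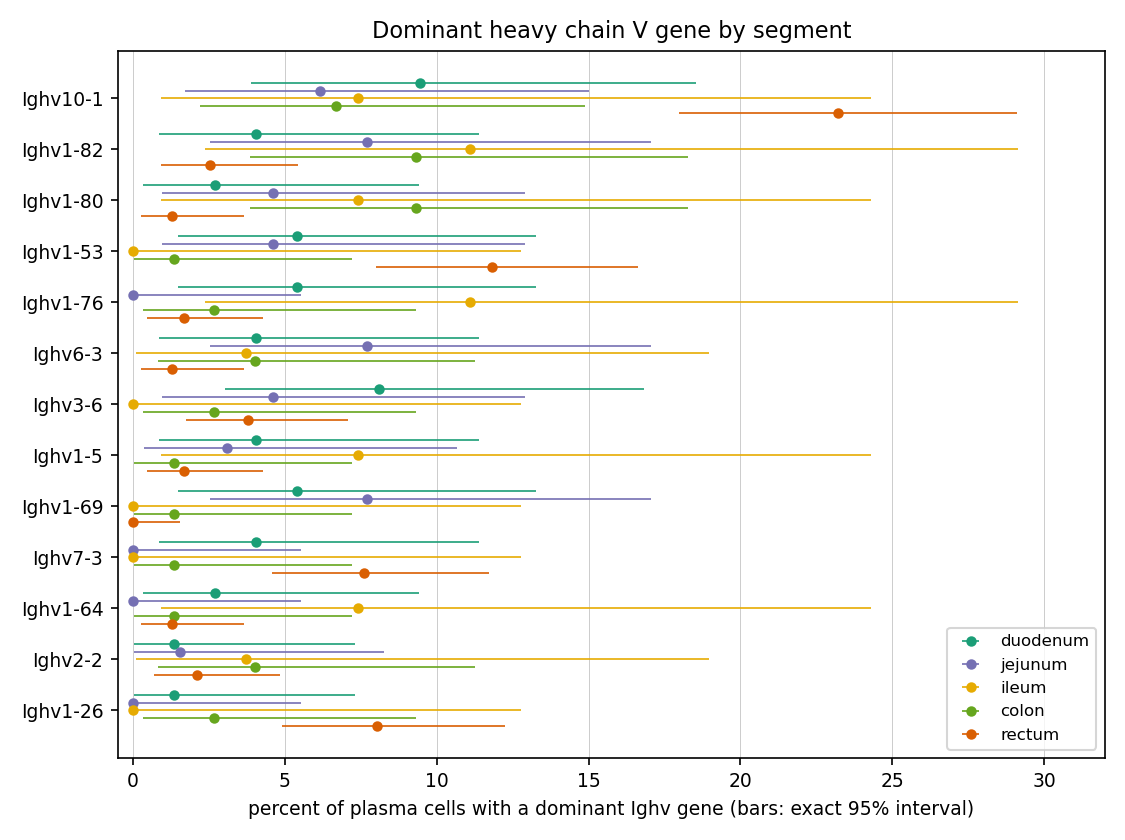
For the 13 genes with the highest mean share, the percent of plasma cells with a dominant Ighv gene in which that gene is the dominant one is shown per library, with exact 95% intervals as bars. Ighv10-1 stands at 23.2% in the rectum and 6.15% to 9.46% elsewhere, and Ighv1-53, Ighv7-3 and Ighv1-26 are also highest in the rectum.

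By mean share, the leading genes of B cells differed in part from those of plasma cells. Ighv3-6 led in 5, 5, 9, 4 and 3 B cells (mean share 4.59%) and Ighv1-64 in 7, 1, 13, 4 and 4 (4.55%), followed by Ighv1-26 (3.47%). Ighv6-3 was tied first in jejunal plasma cells with 5 of 65 and led the jejunal B cells with 7 of 87. Ighv9-3 led the rectal B cells with 5 of 83. Ighv1-53 was second in rectal plasma cells with 28 and tied second in rectal B cells with 4. Ighv8-8, singled out after its values were seen, led in 19 B cells across all 5 libraries and in no plasma cell, where it had 17 UMIs in all.

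By family, defined as the number before the hyphen, Ighv1 held more cells than any other family in both classes. It comprises 93 of the 185 rows. At 1 UMI or more in both classes, it led in 57.3%, 52.9%, 63.3%, 57.0% and 48.4% of plasma cells and in 56.4%, 55.2%, 60.2%, 47.0% and 47.0% of B cells. The mean difference was 2.65 percentage points ± 4.54 (SD, n = 5 libraries), higher in plasma cells in 4 of 5 libraries, with an exact two-sided sign-flip permutation p of 0.25. Its sign depended on the count, since the difference was -2.56 points where a dominant gene needed 80% of the Ighv UMIs and -8.84 points in summed UMIs. The smallest p this test can give with 5 libraries is 0.0625. The Ighv10 family, of which Ighv10-1 supplied 73 of 75 called plasma cells, averaged 10.3% of plasma cells and 1.84% of B cells, 8.49 points higher and higher in 5 of 5 libraries. The Ighv8 family averaged 2.38% of plasma cells and 5.62% of B cells, and Ighv9 1.60% of plasma cells and 5.42% of B cells. Both were lower in plasma cells in 5 of 5 libraries. For Ighv8, Ighv9 and Ighv10 the exact permutation p was 0.0625, and 0.333 after Benjamini-Hochberg adjustment over 16 families, so no family passed.

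The V genes were divided by position into 62 rows nearest the D segments, 62 in the middle and 61 at the distal end. The 61 distal rows led in 43.4% ± 6.7 of plasma cells and 38.4% ± 4.7 of B cells (SD, n = 5 libraries, at 1 UMI or more). They were higher in plasma cells in 3 of 5 libraries, with an exact two-sided sign-flip permutation p of 0.25. The D-proximal rows led in 25.95% ± 1.5 of plasma cells and 32.5% ± 5.6 of B cells, lower in plasma cells in 4 of 5 libraries (exact sign-flip permutation p = 0.125). The middle rows, which include Ighv10-1, held 41.5% of rectal plasma cells and 23.3% to 30.0% of those in the other segments.

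Pairs of plasma cells shared a dominant gene more often than pairs of B cells in every library when 1 UMI was enough to call it. Most B cell calls at this setting rest on exactly 1 UMI, in 529 of 622 B cells with an Ighv UMI. The chance that 2 cells drawn from a library had the same dominant gene, at 1 UMI or more, was 2.81%, 2.94%, 2.76%, 2.87% and 8.15% for plasma cells and 1.76%, 2.06%, 2.12%, 1.31% and 1.67% for B cells. The mean difference was 2.12 percentage points, higher in plasma cells in 5 of 5 libraries, with an exact two-sided sign-flip permutation p of 0.0625, the smallest possible. The rectum carried much of it, and without the rectum the mean difference was 1.04 points. With at least 2 UMIs it was higher in 4 of 5 libraries, with 1 library at -0.113 points, a mean of 2.43 points and an exact permutation p of 0.125. In summed Ighv UMIs the mean difference was 9.16 points, and after thinning to 2000 UMIs 3.42 points. With at least 3 UMIs the plasma cell values were 2.85%, 2.98%, 3.13%, 2.85% and 8.44%, which equal the sharing among 35.1, 33.5, 31.9, 35.1 and 11.8 equally used genes. Without cells led by Ighv10-1 the rectal value was 5.32%. Without those led by Ighv10-1, Ighv1-53, Ighv1-26 or Ighv7-3, which are 50.6% of the rectal called cells and were picked after their values were seen, it was 2.56%. Cells drawn from 2 different libraries shared a gene in 2.49% to 4.19% of plasma cell pairs and 1.57% to 1.999% of B cell pairs.

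**Figure D3:**
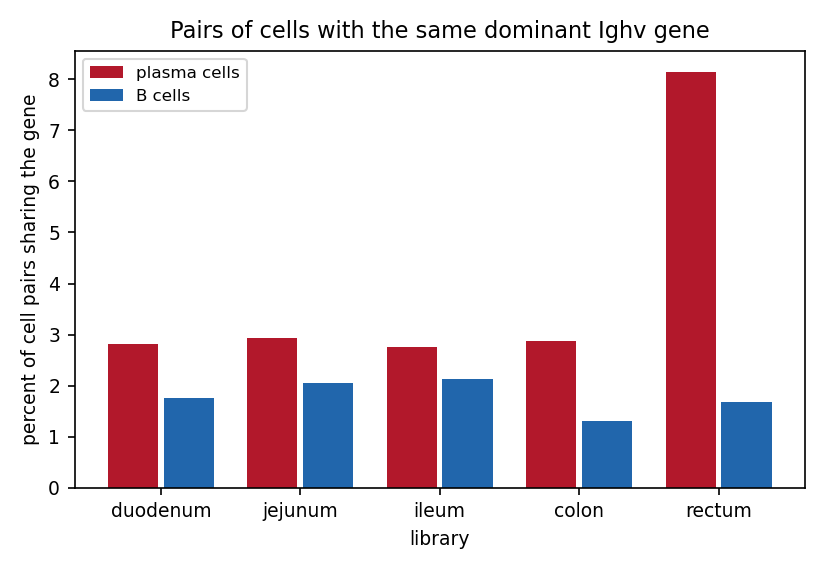
Bars give, per library, the percent of pairs of cells with the same leading Ighv gene, among plasma cells (red, left) and B cells (blue, right) with at least 1 Ighv UMI. Plasma cells stand at 2.76% to 2.94% in 4 libraries and 8.15% in the rectum, against 1.31% to 2.12% in B cells.

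Whether sharing a V gene means sharing an ancestor cannot be read from V counts, because the junction sequence was not measured. The light chain gives a second label. Light chains come from the kappa locus, with the constant gene Igkc, or the lambda locus, with Iglc1 to Iglc4, and a B cell normally makes a single kind. Light V calls alone were unreliable here: of 226 plasma cells with a dominant lambda V gene, 132 had most light constant UMIs from Igkc, whereas 190 of 191 with a dominant kappa V gene did. The cause was not tested. The light constant gene with most UMIs was therefore used, and V pairs only where V and constant gene came from the same locus. Both choices were made after the data were seen.

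In the rectum, most lambda cells were led by Ighv10-1 or Ighv7-3, which was not so outside it. Lambda constant genes had most light constant UMIs in 97 of 478 called plasma cells (20.3%). This share was 17.6%, 7.69%, 14.8%, 6.67% and 29.5% from duodenum to rectum. Among cells led by Ighv10-1 it was 50 of 55 in the rectum and 4 of 5 in the colon, but 1 of 7 in the duodenum, 0 of 4 in the jejunum and 0 of 2 in the ileum. Among called cells led by neither Ighv10-1 nor Ighv7-3 it was 29 of 383 (7.57%), of which 8 of 164 in the rectum. Outside the rectum 27 of 241 called cells used lambda, and 21 of these 27 were led by neither gene. All but 1 of the 55 lambda cells led by Ighv10-1 had Iglc2 as the leading constant gene. Cells led by Ighv7-3 used lambda in 12 of 18 rectal and 1 of 3 duodenal cells, every time with Iglc3. Lambda led in 0 of 28 rectal and 1 of 36 of all cells led by Ighv1-53, and in 0 of 22 led by Ighv1-26. Of the 58 called cells led by Iglc2 in the series 54 carried Ighv10-1, and of the 18 led by Iglc3 13 carried Ighv7-3. In the rectum, cells led by Ighv10-1 or Ighv7-3 thus came mostly with a particular lambda constant gene, and those led by Ighv1-53 or Ighv1-26 with kappa. These are majority calls, and some cells were mixed. At least 10% of light constant UMIs came from each locus in 34 of 478 called cells, 31 of them rectal. Among rectal cells these were 10 of 55 led by Ighv10-1, 6 of 18 by Ighv7-3, 8 of 28 by Ighv1-53 and 0 of 19 by Ighv1-26. The cause was not tested.

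**Figure D4:**
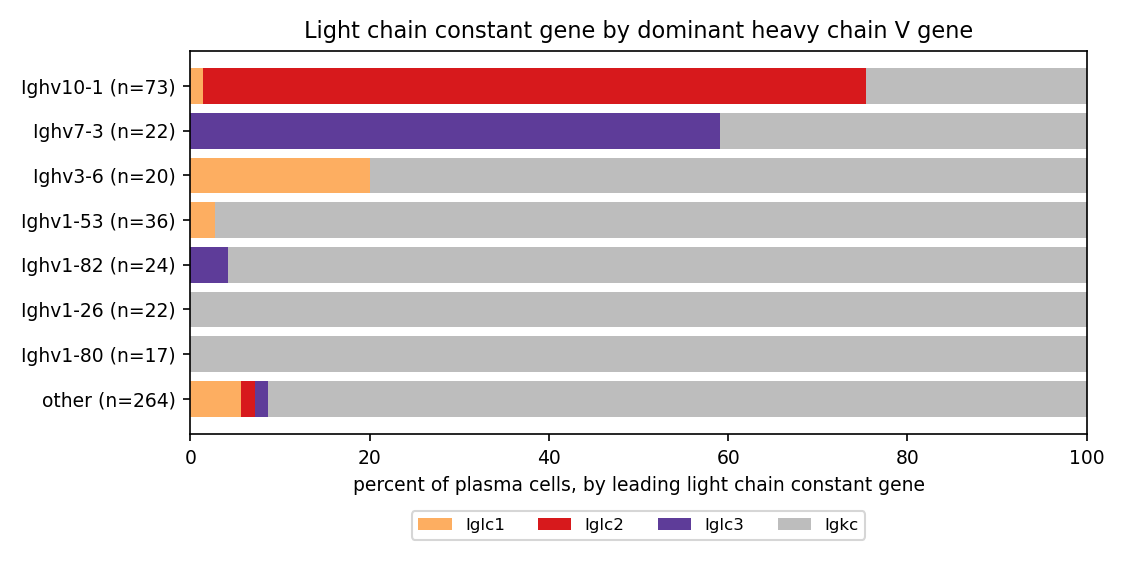
Bars give the percent of called plasma cells, by dominant heavy chain V gene (rows, with the number of cells), whose most counted light chain constant gene is Iglc1, Iglc2, Iglc3 or Igkc. Ighv10-1 cells are 74.0% Iglc2, Ighv7-3 cells 59.1% Iglc3, and Ighv1-26 and Ighv1-80 cells are all Igkc.

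Concordant heavy and light V calls were available for 245 plasma cells, which held 121 distinct pairs. Of these, 39 pairs occurred in at least 2 cells and 26 in at least 2 libraries. Ighv10-1 with Iglv1 was the most frequent, in 1 duodenal, 4 colonic and 32 rectal cells, followed by Ighv7-3 with Iglv1 in 1 duodenal and 12 rectal cells, and Ighv10-1 with Iglv2 in 10 rectal cells. Of the 37 cells with Ighv10-1 and Iglv1, 36 had Iglc2 as constant gene. In mice Iglv1 is known to join mainly to the J segments of Iglc1 and Iglc3, and Iglv2 to that of Iglc2. The 2 V genes are close in sequence and how the authors' counting divides such reads is not given in the sources used here, so the Iglv1 and Iglv2 labels of these cells are uncertain. The pair of Ighv1-80 with Igkv10-96 was found in 1, 3, 1, 4 and 0 cells from duodenum to rectum. Within each library, 2 cells with the same heavy V gene had the same light V gene more often than 2 cells with different heavy V genes. The shares were 53.8% and 13.9% in the duodenum, 45.5% and 9.46% in the jejunum, 53.1% and 5.84% in the colon, and 59.0% and 11.2% in the rectum. In the ileum they were 1 of 4 pairs and 6.82%. The mean difference was 37.8 percentage points, higher for the same heavy V gene in 5 of 5 libraries, with an exact two-sided sign-flip permutation p of 0.0625, the smallest possible, in a test over libraries added after the data were seen. Cells of a library can be sisters.

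A second Ighv gene with at least 3 UMIs was present in 117 of 478 called cells, from 14.9% in the duodenum to 29.5% in the rectum. The second gene came from the family of the first in 65 of them (55.6%), against 37.8% for genes drawn by their usage in the same library. Without the cells that held Ighv1-53 and Ighv1-55 as first and second gene, it was 34 of 86 (39.5%), against 34.1% by usage. The most frequent combination was Ighv1-53 with Ighv1-55, which lies further towards the distal end (chr12:115208137-115208527). Ighv1-55 UMIs were found in 33 of 36 cells led by Ighv1-53, in 4 of 4 duodenal, 2 of 3 jejunal, 1 of 1 colonic and 26 of 28 rectal cells. In these 36 cells there were 1394 Ighv1-53 UMIs and 316 Ighv1-55 UMIs, 22.7 per 100. Among called cells led by neither gene 7 of 435 held an Ighv1-55 UMI (1.61%). Whether reads of a single transcript were divided between these genes was not tested, and their counts are uncertain for that reason. Ighv1-80 and Ighv1-81 were found together in 4 cells led by Ighv1-80 and 3 led by Ighv1-81.

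**Figure D5:**
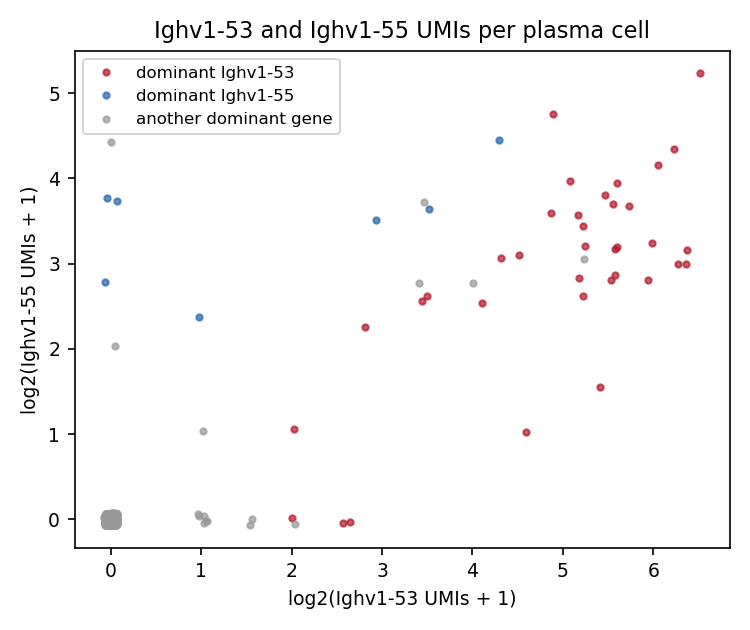
Each point is a called plasma cell, with log2 of its Ighv1-53 UMIs plus 1 on the horizontal and log2 of its Ighv1-55 UMIs plus 1 on the vertical axis, coloured by dominant gene. Of 36 cells led by Ighv1-53 (red) 33 also hold Ighv1-55, against 7 of 435 cells led by neither gene.

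Nearly all of these cells had switched to IgA. Igha was the heavy chain constant gene with most UMIs in 80 of 81, 72 of 74, 29 of 32, 92 of 96 and 276 of 280 plasma cells. Ighm led in 2 jejunal, 2 ileal and 1 rectal cells, and Ighg1 in 1 duodenal, 4 colonic and 2 rectal cells. All 55 rectal cells led by Ighv10-1 carried Igha.

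Segments were also compared by level, with a rule of size in place of a test: at least 50 UMIs over plasma cells, and a CPM in the highest library at least 4-fold that in the second highest, with a count of 0 set to 3 counts in the library. Over all genes, 1.98% met the rule (185 of 9345). Of the 45 Ighv genes with 50 UMIs, 11 met it, 5 highest in the jejunum, 3 in the ileum, 2 in the rectum and 1 in the colon. Light chain V genes met it in 10 of 53, and genes other than antibody V genes in 164 of 9247. The largest gap was that of Ighv4-1, with 880 UMIs in the jejunum and 0 in the other 4 libraries, at least 103-fold higher. Its UMIs came from 3 cells, and 618 of them from 1 cell. Ighv5-9-1 had 0, 82, 0, 8 and 32 UMIs, at least 9.62-fold higher in the jejunum with 3 counts as the floor in the ileum. Only these 2 genes still met the rule without the cell that held most of their UMIs. The others were Ighv5-4, Ighv1-39 and Ighv10-3 in the jejunum, Ighv1-42, Ighv11-2 and Ighv3-2 in the ileum, Ighv13-2 in the colon, and Ighv1-18 and Ighv9-4 in the rectum. Without its highest cell Ighv1-42 was still 19.2-fold higher in the ileum, but its UMIs fell under the minimum of 50. For 5 of the 11 the highest library had 1 dominant cell: Ighv11-2, Ighv3-2, Ighv5-4, Ighv13-2 and Ighv10-3. Ighv10-1 did not meet the rule, with 171, 34.9, 162, 74.8 and 400 CPM in plasma cells from duodenum to rectum.

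Summed over cells, plasma cells and B cells were compared across the whole table with the edgeR quasi-likelihood test in a model that also holds the library. Of 9907 genes tested, 2024 (20.4%) were higher in plasma cells and 1955 (19.7%) lower, at a Benjamini-Hochberg adjusted p under 0.05, with a median log2 fold change of -0.06 over all genes tested. TMM scaling raised plasma over B fold changes by a mean of 1.21 on the log2 scale over CPM. Only 9 Ighv genes passed the filter on low counts, all 9 higher in plasma cells in 5 of 5 libraries on both scales. A gene that is nearly absent from B cells passes that filter only through plasma cells, so this count and the fold changes of these genes are a description, given without p-values. Ighv10-1 had 171, 34.9, 162, 74.8 and 400 CPM in plasma cells and 0.338, 0, 0.381, 0 and 1.27 CPM in B cells, a fitted log2 fold change of 9.94 ± 0.23 (SE). Ighv1-82 had 10.1, 45.6, 47.4, 46.2 and 9.45 CPM in plasma cells and 0.844, 1.20, 1.14, 1.57 and 0.425 CPM in B cells (fitted log2 fold change 5.93 ± 0.22). The other 7, Ighv1-69, Ighv1-55, Ighv6-3, Ighv1-5, Ighv1-81, Ighv1-80 and Ighv2-2, ranged in log2 fold change from 5.06 to 7.10.

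The constant genes, recombination genes and regulators of the same system were read from the same fit. The classes were cut on marker genes in these same counts, and the p-values do not allow for that. Of 12 constant genes 10 were tested, 6 higher and 1 lower in plasma cells, with a median log2 fold change of 5.13. Igha was at 96207 to 134559 CPM in plasma cells and 94.2 to 504 CPM in B cells (log2 fold change 10.18 ± 0.39, edgeR adjusted p = 1.03e-06). Igkc, Iglc1, Iglc2, Iglc3 and Ighg1 were the other 5 higher ones. Ighg1 was uneven, at 3072, 52.0, 20.5, 3555 and 1776 CPM in plasma cells from duodenum to rectum. In the jejunum this was below its 69.8 CPM in B cells. Ighg1 was the leading constant gene in 1 duodenal, 4 colonic and 2 rectal plasma cells, and in none of the jejunum or ileum. Its summed level thus rests on few cells. Iglc2 stood at 15411, 9327, 1267, 17895 and 87304 CPM in plasma cells, highest in the rectum, and 610 to 1107 CPM in B cells. Ighd, the constant gene of IgD on resting B cells, was lower in plasma cells, at 0.386 to 25.9 CPM against 508 to 619 CPM in B cells. The fitted log2 fold change was -5.01 ± 0.67. Ighd is nearly absent from plasma cells and passes the filter on low counts through B cells. Its fold change and its place in the count above are therefore a description, given without a p-value. Ighm was at 97.3, 3941, 3964, 124 and 73.8 CPM in plasma cells, high in the jejunum and ileum only. In B cells Ighm was at 1478 to 1975 CPM, and it did not pass (edgeR adjusted p = 0.491). Ighm led in 2 jejunal, 2 ileal and 1 rectal plasma cells. Ighg2b and Ighg3 did not pass either (edgeR adjusted p = 0.0966 and 0.0564), and Ighg2c and Ighe were too low to be tested.

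Rag1 and Rag2, the recombinase that joins V, D and J segments, had no UMI in either class. Dntt, Vpreb1 and Igll1, of early B cell development, were too low to be tested. No count over the recombination and mutation list is given.

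Of 9 regulators all were tested, 4 higher and 5 lower in plasma cells, with a median log2 fold change of -1.48. Xbp1, the transcription factor of the secretory programme, was at 1306 to 1864 CPM in plasma cells and 67.9 to 90.04 CPM in B cells (log2 fold change 5.51 ± 0.19, edgeR adjusted p = 7.8e-07). Prdm1, which shuts off the B cell programme, was at 78.3 to 155 CPM in plasma cells and 5.23 to 16.2 CPM in B cells (4.77 ± 0.23), and the surface proteoglycan Sdc1 at 203 to 241 CPM and 6.48 to 14.7 CPM (5.82 ± 0.20). Irf4 was higher by the TMM-scaled test (0.82 ± 0.13) but lower in CPM in 4 of 5 libraries. The B cell factors Pax5, Ebf1, Bach2, Bcl6 and Irf8 were lower in plasma cells in 5 of 5 libraries, with log2 fold changes of -4.08, -4.40, -2.96, -2.10 and -1.48. Pax5 and Bcl6 were at 0.289 and 0.771 CPM in rectal plasma cells, so their place in the count is a description as well.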

How the data were processed

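The authors deposited raw UMI counts, a matrix of genes by barcodes for each segment. Per the submitters' processing notes the tools were Cell Ranger 4.0.0 and Seurat with the build mm10, but the matrix headers name cellranger 7.2.0. Of 16535 barcodes, 12255 with 300 or more genes and a mitochondrial share of up to 20% were kept, and 333 with the highest Scrublet scores (scanpy 1.11.5) were removed as doublets, at 0.8% per 1000 deposited barcodes, leaving 11922 cells. T cells needed at least 2 UMIs of Cd3d, Cd3e and Cd3g, and epithelial cells at least 3 of Epcam, Krt8 and Krt18, each without B cell marker UMIs. Gene positions come from RefSeq, matched by symbol for 185 of 185 rows.

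UMIs were summed per library and class and tested with edgeR 4.0.16 (R 4.3.3; filterByExpr, TMM, quasi-likelihood F test, library as a term, Benjamini-Hochberg adjustment at 0.05). Its p-values rest on the spread between the 5 libraries, which includes differences between segments. On simulated counts for 9941 genes the test recovered 94.5% of 200 genes changed 4-fold between plasma and B cells. The 200 were drawn from genes above a minimum mean count, with a fixed spread and no differences between segments. Recovery of sparser genes was therefore not measured. DESeq2 1.42.0 was an alternative. Sign-flip tests enumerated all 32 sign combinations. A dominant gene needed 3 UMIs, but since this called 9 B cells, comparisons with B cells used 1 UMI in both classes, a choice made after seeing the data.

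Named genes were the 12 with the highest mean share of plasma cells, the top 2 per library and class, those meeting the rule of size, the 5 with the largest fold change each way in the plasma against B cell test, and the listed constant, recombination and regulator genes. Ighv1-59, Ighv1-74, Ighv7-1 and Ighv8-8 were named after their values were seen. Members and lists were chosen with earlier results of these data known. A member of the recombination and mutation list is not reported here, so no count over that list is given. Spatial measurements of the study and the sequences of the V genes were not used here.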

Additional observations from a re-analysis of the deposited data

Results flagged for a closer look

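For the Ighv3 family the plasma minus B cell difference went opposite ways in small and large intestine. At 1 UMI or more, the family led in 14.7%, 8.82%, 6.67%, 2.33% and 3.88% of plasma cells from duodenum to rectum and in 3.91%, 8.05%, 5.76%, 9.09% and 4.82% of B cells. The difference was 10.8, 0.778 and 0.908 percentage points in duodenum, jejunum and ileum, and -6.77 and -0.943 points in colon and rectum. The mean of the 2 large intestinal libraries minus that of the 3 small intestinal ones was -8.00 points. The difference was flagged because every library of one side moved one way, and it was not tested. The counts behind it are small, 11, 6, 2, 2 and 10 plasma cells and 7, 7, 11, 6 and 4 B cells.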

How the results depend on the processing

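The share of plasma cells with a dominant gene was 88.5% with at least 2 UMIs, 59.5% with at least 10, 65.7% with 80% of the Ighv UMIs and 21.7% after thinning to 2000 UMIs. The rectal Ighv10-1 share was 30.1% with at least 10 UMIs, 42.0% after thinning and 40.5% of summed Ighv UMIs. The duodenal share of this gene, 9.46%, was 25% after thinning and 21.97% of summed UMIs. The rectal Ighv1-53 share, 11.8%, was 7.78% with the 80% rule and 21.7% after thinning. The cause was not tested. The plasma minus B cell difference in sharing kept the direction of its mean under 14 settings, with 9.16 points in summed UMIs, 3.42 after thinning and 1 library below 0 at 2 UMIs, and was 1.04 to 2.49 points without a library. That of the Ighv1 family was 0.816 to 3.88 points without a library but -2.56 with the 80% rule and -8.84 in summed UMIs. Versions with 3 or 10 UMIs could not be given for these differences, since too few B cells were called. Leaving out a library gave 1672 to 1822 genes higher and 1450 to 1726 lower in plasma cells, and 9 to 13 Ighv genes higher with 0 lower. Without a filter on low counts 57 Ighv genes of 109 were higher and 0 lower, against 2095 higher and 2236 lower of 20004 genes in all. Ighv genes are sparse in B cells, so this count is a description as well. Without library as a paired block, 2001 genes were higher and 1880 lower, 9 of them Ighv genes and all higher. The rule of size was met by 25 Ighv genes of 718 genes at 2-fold, 3 of 65 at 200 UMIs, and 2 Ighv genes without the cell with most UMIs. At 10% mitochondrial UMIs 119 genes met it. With 1 library per segment, segment, animal and library cannot be told apart, and 27 called cells in the ileum limit its shares most.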
